A study of Homo sapiens with 6 samples.

Results

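Long-chain fatty acids are built from citrate that leaves the mitochondrion. The genes examined here cover that route in order: *ACLY*, which cleaves citrate to acetyl-CoA, *ACACA*, which carboxylates it to malonyl-CoA, *FASN*, the synthase that makes palmitate, *ACSL1*, which activates fatty acids as acyl-CoA, the desaturases *SCD*, *FADS1* and *FADS2*, and the elongases *ELOVL1*, *ELOVL5* and *ELOVL6*. These 10 genes were chosen by name, and 9 of them had a row among the 26902 rows of the table. *ACACA* was not analysed here. *ELOVL6* was below the filter on low values, which left 8 genes tested.

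SREBP transcription factors, which are held in the endoplasmic reticulum by INSIG proteins when sterols are plentiful, are the main activators of this pathway in most cells, often together with NF-Y and SP1 bound nearby. LXR nuclear receptors add a second input through *SREBF1* and *SCD*. In monocytes and macrophages the products feed membranes, phagocytosis and the precursors of lipid mediators, and *FADS1*, *FADS2* and *ELOVL5* together turn dietary linoleic acid into arachidonic acid.

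RNA was measured in U-937 cells, a human leukemia line with monocytic features whose genotype the labels give as a KMT2A-MLLT10 fusion. The sgMETTL1.3 group (3 libraries) carried a guide RNA against *METTL1*, which encodes the catalytic subunit of a tRNA N7-methylguanosine methyltransferase, and the sgNS group (3 libraries) carried a control guide. Both groups came from 1 clone expressing Cas9, both were selected with blasticidin at 10 µg/ml and hygromycin B at 200 µg/ml, and cells were collected about 8 to 10 days after transduction. With 1 guide, its other effects and those of losing *METTL1* cannot be told apart. Separate cultures are not stated for the replicates, so p-values reflect only how these libraries vary, possibly for technical reasons.

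Values were TPM (a level per transcript length that sums to 1000000 in a library) rescaled so that synthetic ERCC spike-in RNAs had 1 common sum in all libraries; read depth is unknown. On this spike-in scale the median log2 fold change of the 12449 genes tested was -0.32, and 797 genes rose while 6142 fell. Each gene is therefore also given as TPM, where 3021 rose and 3295 fell and the median was 0.00. *METTL1* itself was 8.28, 5.94 and 7.42 in the sgMETTL1.3 libraries and 19.7, 22.0 and 20.3 in the sgNS libraries. The library sgMETTL1.3 replicate 1 stood apart: its difference from the other libraries of its group followed the GC content of transcripts (Spearman 0.848 across 11726 genes, which are not independent replicates). *PTPRC*, *CD33*, *SPI1*, *CD68* and *LYZ* were detected in each library, *MPO* and *CD14* stayed below 1, and the summed level of 10 myeloid markers was 829 to 1062 in sgMETTL1.3 and 1377 to 1485 in sgNS, with *LYZ* at a mean of 72.1 in sgMETTL1.3 and 404 in sgNS. *LYZ* made up the largest part of the difference between these sums. Of the 8 myeloid markers tested, 5 fell and 0 rose, against 49.3% and 6.4% of all tested genes. As TPM 3 fell and 1 rose, against 26.6% and 24.4%. The part of these markers in the results was not tested. Epithelial, hepatocyte and adipocyte markers were at most 0.123. Of 4 T cell markers, *CD3D* and *CD3G* were at 0 throughout and *CD2* made up nearly all of a sum of 4.85 to 5.86 in sgMETTL1.3 and 2.51 to 2.87 in sgNS.

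Transcripts of *ACLY*, *SCD*, *FADS1*, *FADS2* and *ELOVL5* fell with the *METTL1* guide, to between 52.1% and 59.7% of the sgNS mean on the spike-in scale and between 66.3% and 76.0% as TPM. *ACSL1* also fell on the spike-in scale, but by about as much as the median gene, and it did not pass as TPM. *ELOVL1* and *FASN* did not pass the test on either scale. In all, 6 of 8 tested genes fell, where 49.3% of all tested genes did, and 0 rose, where 6.4% of all tested genes did (limma, adjusted p under 0.05). As TPM, 5 of 8 fell, where 26.6% of all genes did, and 0 rose, where 24.4% did. Their median log2 fold change was -0.75, against -0.32 over all genes, and as TPM it was -0.40, against 0.00. In a bulk sample, less RNA of a gene in each cell and fewer cells expressing it cannot be told apart. With 300 ng of total RNA used, values on the spike-in scale are not shown here to be levels per cell.

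**Figure D1:**
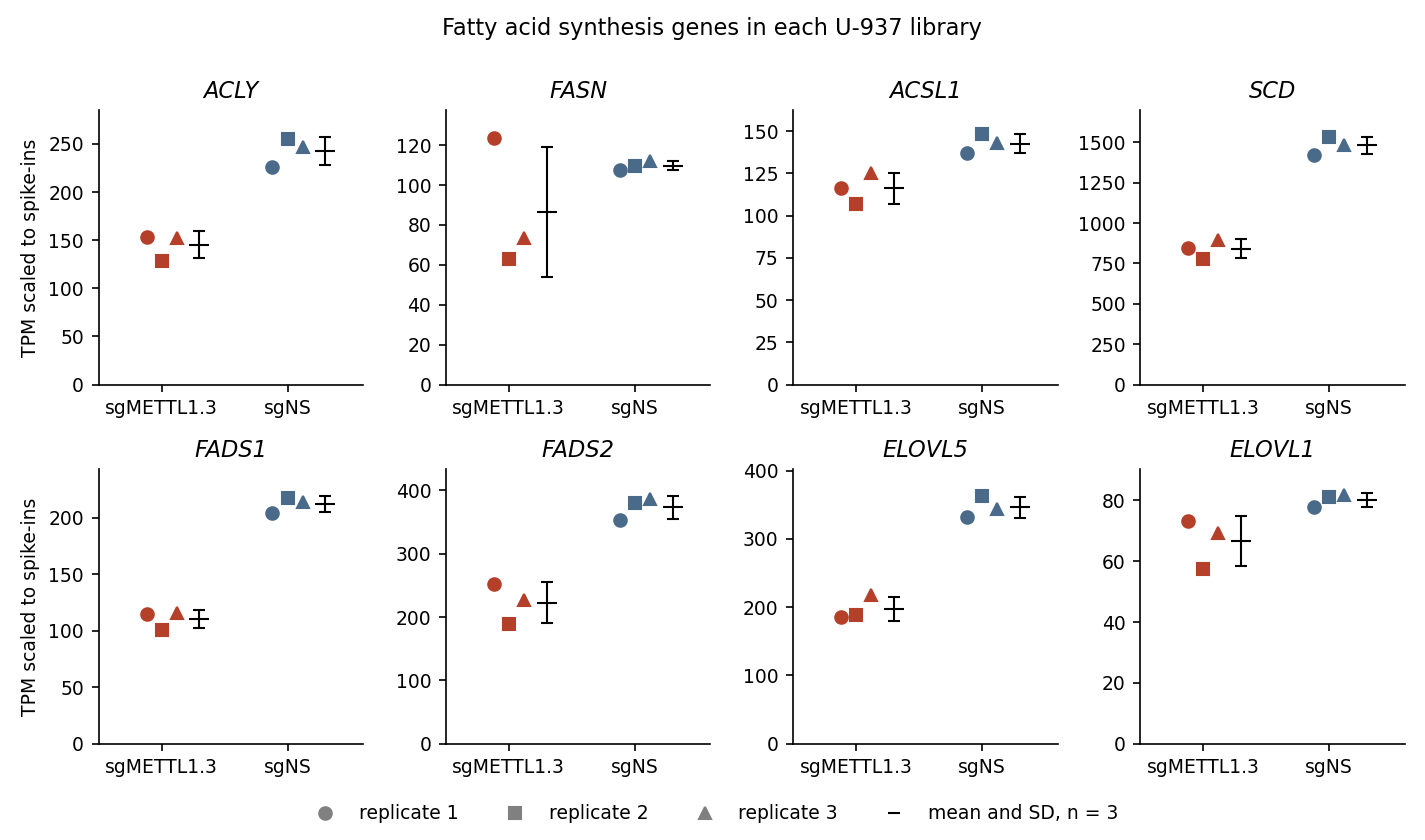
Level of each tested gene (TPM scaled to spike-ins, linear axes from 0) in the 3 sgMETTL1.3 libraries, left, and the 3 sgNS libraries, right, with the mean and SD beside them. For *ACLY*, *SCD*, *FADS1*, *FADS2* and *ELOVL5* the sgMETTL1.3 points lie well below the sgNS points, while *FASN* in sgMETTL1.3 replicate 1 (124) lies above all 3 sgNS values.

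Promoter sequence was available from RefSeq (GRCh38.p14) for 8 of the 9 genes with a row, not for *FASN*, in 14 windows that run from 250 bases before to 50 bases after an annotated start. The pentamer CCAAT, the core of NF-Y sites, was found on either strand in 7 of these 14 windows, belonging to 6 genes, and in 34.6% of 35116 promoter windows of all genes. The SP1 box GGGCGG was in 9 of 14 windows, against 45% of all windows. The letters CACCCCAC, taken from a sterol regulatory element, were in 1 window, of *ACSL1* (2.79% of all windows), and the E-box CACGTG was in 1 window, of *ELOVL5* (7.26% of all windows). Windows of 1 gene can overlap, and a match describes letters only. The 250 bases before the start are shown for 3 genes that fell on both scales and for *ELOVL1*, which did not pass on either, all 4 chosen because they hold CCAAT (read as ATTGG on the other strand). The windows of *FADS1*, which had the lowest fold change, and of *ELOVL6* hold none. Capitals mark CCAAT and, in *ELOVL5*, also CACGTG. SP1 boxes are not marked.
SCD: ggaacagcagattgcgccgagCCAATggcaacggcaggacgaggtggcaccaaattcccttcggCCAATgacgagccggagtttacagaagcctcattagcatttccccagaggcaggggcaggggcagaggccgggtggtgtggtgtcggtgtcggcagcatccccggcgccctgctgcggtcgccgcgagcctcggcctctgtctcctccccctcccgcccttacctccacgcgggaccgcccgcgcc
ACLY: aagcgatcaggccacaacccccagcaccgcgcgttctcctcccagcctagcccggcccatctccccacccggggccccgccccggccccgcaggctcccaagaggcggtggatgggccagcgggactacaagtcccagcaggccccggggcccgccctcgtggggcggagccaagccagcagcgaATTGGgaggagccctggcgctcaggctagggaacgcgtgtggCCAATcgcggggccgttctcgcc
ELOVL5: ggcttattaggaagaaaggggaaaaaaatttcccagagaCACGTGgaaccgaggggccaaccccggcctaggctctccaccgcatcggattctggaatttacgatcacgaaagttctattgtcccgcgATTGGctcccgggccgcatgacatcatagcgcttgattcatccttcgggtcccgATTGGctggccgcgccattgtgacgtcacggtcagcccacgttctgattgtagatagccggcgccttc
ELOVL1: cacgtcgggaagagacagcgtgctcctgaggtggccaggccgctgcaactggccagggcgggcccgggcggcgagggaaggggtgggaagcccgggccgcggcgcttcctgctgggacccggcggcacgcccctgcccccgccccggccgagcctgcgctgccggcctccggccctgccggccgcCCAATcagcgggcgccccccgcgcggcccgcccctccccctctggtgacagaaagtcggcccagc
The *SCD* window lies at chr10:100346983-100347232 on the plus strand, with CCAAT starting at positions -229 and -186 from the start site. The other windows are on the minus strand, *ACLY* at chr17:41919023-41919272, *ELOVL5* at chr6:53348951-53349200 and *ELOVL1* at chr1:43368012-43368261. The *ELOVL1* window, with CCAAT at position -65, also holds 5 SP1 boxes, and the one that starts at position -69 overlaps the CCAAT.

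*ACLY* supplies the cytosolic acetyl-CoA from which fatty acids and sterols are made. Its level was 154, 129 and 153 in the sgMETTL1.3 libraries, against 226, 255 and 247 in the sgNS libraries. The groups did not overlap. In sgMETTL1.3 replicate 2 lay below the other libraries of its group, and without it the log2 fold change was -0.66 (limma adjusted p = 5.64e-05). The means were 145 ± 14.0 in sgMETTL1.3 and 243 ± 14.6 in sgNS (SD, n = 3 each), or -0.74 on the log2 scale (SE 0.105, limma adjusted p = 5.74e-05). As TPM *ACLY* averaged 155 ± 5.45 in sgMETTL1.3 and 204 ± 3.56 in sgNS (SD, n = 3 each), which gave -0.39 on the log2 scale (limma adjusted p = 0.00094).

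*FASN*, the multifunctional enzyme that joins malonyl-CoA units into palmitate, was the most variable of the 8 genes among the sgMETTL1.3 libraries. Its level was 124, 62.8 and 73.35 in sgMETTL1.3, against 107, 109.8 and 112 in sgNS. Replicate 1 lay above all 3 controls and the other sgMETTL1.3 libraries below all of them, a coefficient of variation of 37.6% in sgMETTL1.3 and 2.08% in sgNS. The log2 fold change was -0.40 with a 95% interval from -0.96 to 0.17 (limma adjusted p = 0.197), and -0.05 as TPM (limma adjusted p = 0.816). Without sgMETTL1.3 replicate 1 it was -0.68 (limma adjusted p = 1.68e-09) and *FASN* counted as lower, in a fit that borrowed its spread fully from other genes. Without sgMETTL1.3 replicate 2 it was -0.20 (limma adjusted p = 0.464), and without sgMETTL1.3 replicate 3 it was -0.31 (limma adjusted p = 0.353). As TPM without sgMETTL1.3 replicate 1 it was -0.27 (limma adjusted p = 6.28e-05). The *FASN* transcript has a GC content of 65.3%, the highest of the 8, and its value in replicate 1 exceeded the mean of the other sgMETTL1.3 libraries by 0.86 on the log2 scale; over the 364 tested genes with 64 to 66% GC the median excess was 0.70. After GC correction the *FASN* log2 fold change was -0.67 on the spike-in scale and -0.31 as TPM, both past the threshold (limma adjusted p = 3.19e-12 and 0.000179). The spike-in fit with GC correction also borrowed its spread fully from other genes. How much of the excess came from GC content was not tested.

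**Figure D2:**
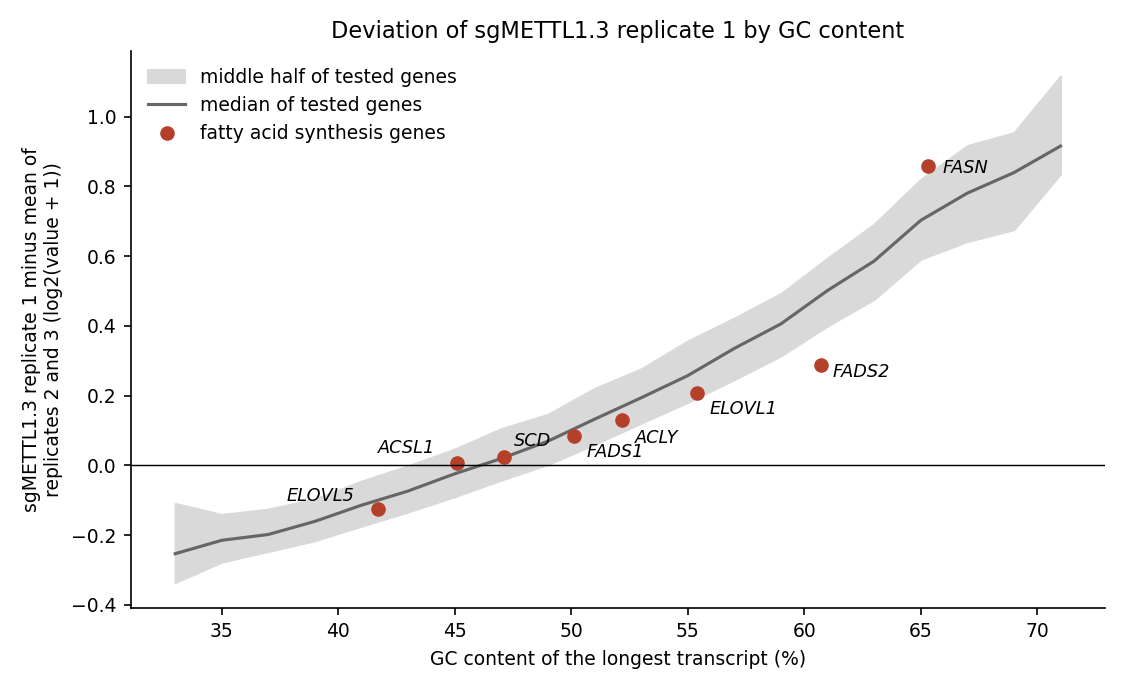
Excess of sgMETTL1.3 replicate 1 over the mean of replicates 2 and 3 (log2(value + 1), vertical axis) against the GC content of the longest transcript (%, horizontal axis). The line is the median and the band the interquartile range of tested genes in bins of 2% GC. Coloured points are the 8 tested fatty acid genes, from *ELOVL5* at -0.12 to *FASN* at 0.86.

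*ACSL1* encodes a long-chain acyl-CoA synthetase that is induced in inflammatory macrophages. It was 116, 107 and 125 in sgMETTL1.3, against 137, 148 and 143 in sgNS. The groups did not overlap, but the gap between the highest sgMETTL1.3 and the lowest sgNS library was small. This difference of -0.30 on the log2 scale (SE 0.0994, limma adjusted p = 0.0216) lay 0.02 above the median of all genes. It was no longer past the threshold without sgNS replicate 2 (limma adjusted p = 0.113) or without sgNS replicate 3 (limma adjusted p = 0.0972). With TPM values it was 0.05 (limma adjusted p = 0.578), and as TPM without sgMETTL1.3 replicate 1 *ACSL1* counted as higher (0.12, limma adjusted p = 0.00269).

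*SCD*, the stearoyl-CoA desaturase that makes oleate and palmitoleate, had the highest level of the 9 fatty acid genes in every library. It was 848, 777 and 894 in sgMETTL1.3, against 1423, 1531 and 1486 in sgNS. The highest sgMETTL1.3 library was far below the lowest control. *SCD* averaged 839.9 ± 58.9 in sgMETTL1.3 and 1480 ± 54.1 in sgNS (SD, n = 3 each), a log2 fold change of -0.82 with a 95% interval from -1.02 to -0.61 (limma adjusted p = 1.24e-05). As TPM *SCD* averaged 901 ± 64.0 in sgMETTL1.3 and 1246 ± 14.7 in sgNS (SD, n = 3 each), or -0.47 on the log2 scale (limma adjusted p = 0.00075). Its transcript, at 47.1% GC, differed between replicate 1 and the other sgMETTL1.3 libraries by 0.03 on the log2 scale.

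*FADS1* and *FADS2* encode the delta-5 and delta-6 front-end desaturases of polyunsaturated fatty acids and lie next to each other on chromosome 11. *FADS1* was 114.5, 101 and 116 in sgMETTL1.3, against 204, 218 and 213.5 in sgNS. It had the lowest log2 fold change of the 8 genes, -0.94 with a 95% interval from -1.15 to -0.72 (limma adjusted p = 5.82e-06), which put it at percentile 8.7 of all tested genes, counted from the lowest fold change. *FADS2* was 253, 189 and 226 in sgMETTL1.3, against 353, 380.3 and 386 in sgNS. Its replicate 1 was the highest of the sgMETTL1.3 libraries and still below every control. The change in *FADS2* was -0.75 on the log2 scale (SE 0.114, limma adjusted p = 0.000101). On the TPM scale they changed by -0.59 for *FADS1* (limma adjusted p = 0.000279) and -0.40 for *FADS2* (limma adjusted p = 0.000826). In GENCODE 29 (GRCh38) *FADS1*, at chr11:61799625-61829318 on the minus strand, overlaps *FADS2*, at chr11:61792980-61867354 on the plus strand. They share 490 exon bases. Whether counting used strand is not stated, so reads from that stretch cannot be assigned with certainty. *FADS2* also shares 49 exon bases with *FEN1* on its own strand.

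*ELOVL5*, which elongates polyunsaturated fatty acids between the desaturation steps, was 185.5, 188 and 218 in sgMETTL1.3, against 331, 363 and 344 in sgNS. The groups were far apart. Its means of 197 ± 18.1 in sgMETTL1.3 and 346 ± 15.8 in sgNS (SD, n = 3 each) lay -0.81 apart on the log2 scale (SE 0.1, limma adjusted p = 2.08e-05), and -0.46 as TPM (limma adjusted p = 0.00601). *ELOVL1*, which extends saturated and monounsaturated chains to very long lengths, was 73.2, 57.6 and 69.4 in sgMETTL1.3, against 77.7, 81.0 and 81.7 in sgNS. The groups did not overlap, with replicate 1 nearest to the controls. The log2 fold change was -0.27 with a 95% interval from -0.50 to -0.03 (limma adjusted p = 0.0527), which lay 0.05 above the median gene. As TPM the direction turned: *ELOVL1* averaged 71.2 ± 1.94 in sgMETTL1.3 and 67.5 ± 1.40 in sgNS (SD, n = 3 each), or 0.08 on the log2 scale (limma adjusted p = 0.282). Without sgMETTL1.3 replicate 1 the spike-in value was -0.34 and passed (limma adjusted p = 0.0037), and without sgMETTL1.3 replicate 2 it was -0.17 and did not (limma adjusted p = 0.158).

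*ELOVL6*, which extends palmitate to stearate, was listed at 0, 0.0166 and 0 in sgMETTL1.3 and at 0.0226, 0 and 0.0241 in sgNS. Values this low were not tested, and no fold is given. Other genes of the elongation cycle that were chosen after their values were seen were also listed near 0, namely *HSD17B12*, the ketoacyl-CoA reductase of the cycle, at no more than 0.169 and *CYB5A*, the electron donor of the desaturases, at 0 in all libraries. Both are widely expressed genes, so a low listing in this table does not show that a transcript is lacking.

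**Figure D3:**
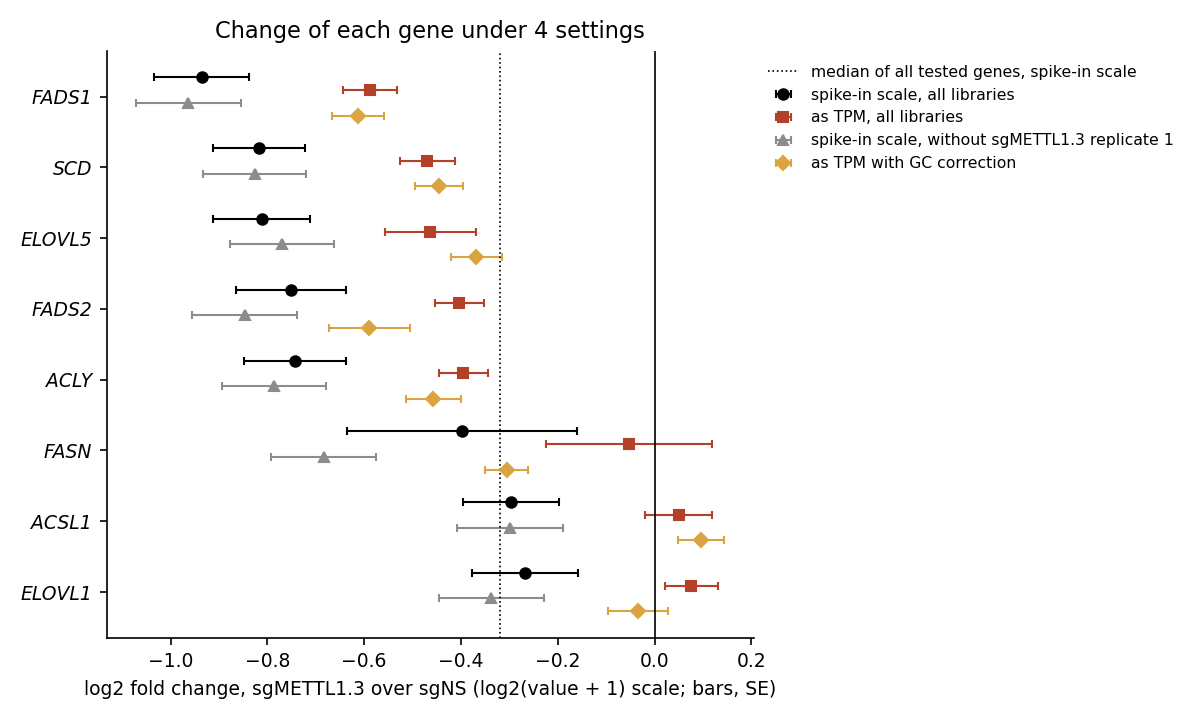
Log2 fold change of sgMETTL1.3 over sgNS with its SE for each tested gene, under 4 settings: the spike-in scale, TPM, the spike-in scale without sgMETTL1.3 replicate 1, and TPM with GC correction. *FADS1*, *SCD*, *ELOVL5*, *FADS2* and *ACLY* lie below 0 in all 4 settings, *FASN* differs between the settings, and *ACSL1* and *ELOVL1* lie near the median of all genes, -0.32, on the spike-in scale.

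Settings chosen after seeing the data, together with the library left out, changed the count. Without sgMETTL1.3 replicate 1 all 8 genes fell on the spike-in scale, where 61.4% of all genes did and 6.43% rose. With GC correction all 8 also fell, against 60.7% of all genes, and 8.19% of all genes rose. In both of these fits the median gene borrowed its spread fully from other genes. Their small p-values therefore do not rest on the spread of the gene itself. The fit without that library also gave the spike-in p-values without it for *FASN*, *ELOVL1*, *SREBF1*, *SREBF2* and *TECR*. As TPM with GC correction 6 fell, *FASN* among them, where 35.1% of all genes fell and 29.2% rose. As TPM without sgMETTL1.3 replicate 1 the same number fell and 1 rose, *ACSL1*, where 35.4% of all genes fell and 34.7% rose.

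The groups did not overlap for 7 of 8 genes on the spike-in scale, all lower in sgMETTL1.3, where 53.4% of all tested genes were lower and 8.66% higher without overlap. As TPM 5 of 8 genes were lower without overlap, against 33.1% of all genes, and 1, *ELOVL1*, was higher without overlap, against 30.2% of all genes. The order of levels was similar in both groups. In sgMETTL1.3 *SCD* was followed by *FADS2* and *ELOVL5*, whose ranges overlapped, then by *ACLY*, and the ranges of *ACSL1* and *FADS1*, of *FADS1* and *FASN* and of *FASN* and *ELOVL1* overlapped. In sgNS the order was *SCD*, *FADS2*, *ELOVL5*, *ACLY*, *FADS1*, *ACSL1*, *FASN* and *ELOVL1*, and only *FADS2* and *ELOVL5* overlapped. *FADS1* thus overlapped *ACSL1* in sgMETTL1.3, with means of 110.4 and 116, and stood above it in sgNS, with means of 212 and 143.

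A ratio of 2 genes within a library does not move with the scaling of that library apart from the small pseudocount. Of the 7 pairs set up by role, 5 could be computed. The log2 ratio of *ELOVL1* to *ELOVL5* was -1.33, -1.69 and -1.64 in sgMETTL1.3, against -2.08, -2.15 and -2.06 in sgNS, a difference of 0.54. The log2 ratio of *FADS1* to *FADS2* was -1.14, -0.90 and -0.96 in sgMETTL1.3, against -0.79, -0.80 and -0.85 in sgNS, a difference of -0.18. In both pairs the groups did not overlap, and in both sgMETTL1.3 replicate 1 was farthest from the controls. The ratio of *SCD* to *FASN* differed by -0.42 and that of *ACLY* to *FASN* by -0.34, also without overlap, but by -0.14 and -0.10 without sgMETTL1.3 replicate 1. The ratio of *FADS1* to *FADS2* differed by -0.12 without that library, and that of *ELOVL1* to *ELOVL5* by 0.43. For these 4 pairs the exact two-sided permutation p was 0.1, the smallest that 3 against 3 can give, and 0.125 adjusted over the 5 pairs. The ratio of *ACSL1* to *FASN* differed by 0.10 with overlapping groups (exact permutation p = 1), by 0.39 without sgMETTL1.3 replicate 1, and by -0.04 without replicate 2 or replicate 3 of that group.

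**Figure D4:**
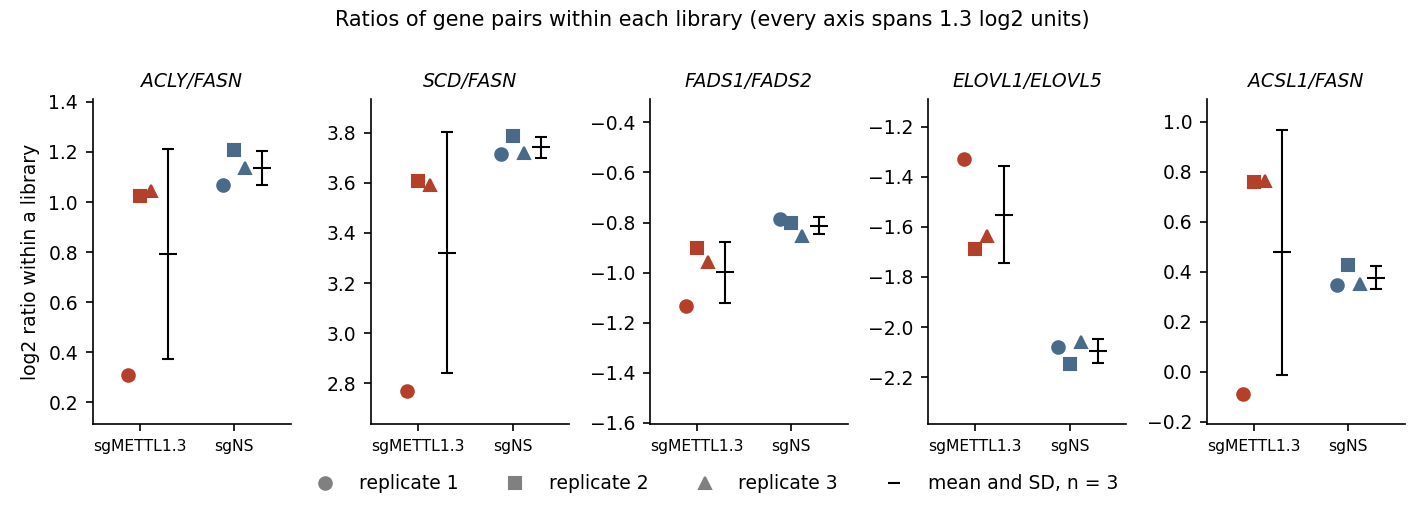
Log2 ratio of 5 gene pairs within each library, sgMETTL1.3 left and sgNS right, with the mean and SD; every vertical axis spans the same number of log2 units. The *ELOVL1* to *ELOVL5* ratio lies higher in all 3 sgMETTL1.3 libraries, and the 3 ratios over *FASN* are lowest in sgMETTL1.3 replicate 1.

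Of 15 tested SREBP and LXR regulators 8 fell and 0 rose, a share near the 49.3% and 6.4% of all genes, with a median log2 fold change of -0.46. As TPM 3 fell and 3 rose, against 26.6% and 24.4% of all genes, with a median of -0.12. Without sgMETTL1.3 replicate 1 as TPM 7 fell and 5 rose, against 35.4% and 34.7% of all genes. With GC correction as TPM 9 fell and 5 rose, against 35.1% and 29.2% of all genes. *INSIG1*, the sterol-responsive anchor of SREBP and itself an SREBP target, had the lowest log2 fold change of this list, -1.84, and -1.50 as TPM (limma adjusted p = 6.26e-08 and 3.78e-05). Its level was 122.7, 115 and 133 in sgMETTL1.3, against 422, 466 and 447 in sgNS. *MID1IP1*, which promotes polymerisation of acetyl-CoA carboxylase, fell (-0.83, and -0.48 as TPM), as did *FBXW7*, a ubiquitin ligase subunit that targets nuclear SREBP (-0.63, and -0.30 as TPM). *MBTPS1*, the site-1 protease that cleaves SREBP, fell on the spike-in scale (-0.50) and did not pass as TPM (-0.16). The SREBP genes were looked at after their values were seen. *SREBF1* was 51.8, 27.1 and 30.9 in sgMETTL1.3, against 41.8, 42.8 and 45.5 in sgNS, the same layout as *FASN* with replicate 1 above all controls, and its transcript has 64.7% GC. Its log2 fold change was -0.29 (limma adjusted p = 0.301), -0.57 without that library (limma adjusted p = 1.05e-06), and -0.11 without sgMETTL1.3 replicate 2 (limma adjusted p = 0.672). *SREBF2* was 137, 90.0 and 106 in sgMETTL1.3, against 87.9, 94.2 and 90.9 in sgNS, with a log2 fold change of 0.26 that did not pass (limma adjusted p = 0.125), while as TPM it rose (0.61, limma adjusted p = 0.00132). On the spike-in scale it was 0.10 without sgMETTL1.3 replicate 1 (limma adjusted p = 0.398), and 0.40 and past the threshold without sgMETTL1.3 replicate 2 (limma adjusted p = 0.0087).

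Of 7 tested genes that supply acetyl-CoA and NADPH, 3 fell and 1 rose, against 49.3% and 6.4% of all genes, with a median of -0.07. Without sgMETTL1.3 replicate 1 the median was -0.23, with 4 lower and 0 higher, against 61.4% and 6.43% of all genes. As TPM 2 fell and 4 rose, against 26.6% and 24.4% of all genes. The TPM median was 0.28, and 0.17 without that library. *CS*, citrate synthase, fell (-0.73, and -0.38 as TPM). *ACSS2*, which makes acetyl-CoA from acetate, fell on the spike-in scale (-0.33) and was at 0.01 as TPM, which did not pass.

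Among 11 tested genes of elongation and desaturation outside the 10, 6 fell and 0 rose, with a median of -0.45. That is near the 49.3% and 6.4% of all genes. As TPM 5 fell and 2 rose, against 26.6% and 24.4% of all genes. *HACD1*, *HACD3* and *HACD4*, of the family of hydroxyacyl-CoA dehydratases, fell (-1.18, -0.79 and -0.77, and -0.87, -0.45 and -0.43 as TPM). *HACD2*, of the same family and chosen after its values were seen, was at 0.08 without passing (limma adjusted p = 0.548) and rose as TPM (0.42, limma adjusted p = 0.0202). *CYB5B*, the outer mitochondrial membrane form of cytochrome b5, fell (-0.80, and -0.46 as TPM). *TECR*, the reductase that ends the elongation cycle, chosen after its values were seen, was 183, 115 and 136 in sgMETTL1.3, against 172, 175 and 181 in sgNS (log2 fold change -0.31, limma adjusted p = 0.104, and 0.04 as TPM). It was -0.49 and passed without sgMETTL1.3 replicate 1 (limma adjusted p = 1.81e-05), and -0.16 and did not pass without replicate 2 of that group (limma adjusted p = 0.275).

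The other carboxylases and synthases include the mitochondrial pathway that makes the lipoic acid precursor. Of 9 tested, 7 fell and 0 rose, against 49.3% and 6.4% of all genes, with a median of -0.50. As TPM 4 fell and 1 rose, against 26.6% and 24.4% of all genes. *CBR4*, a subunit of the mitochondrial ketoacyl reductase, was 6.79, 6.94 and 7.17 in sgMETTL1.3, against 20.7, 24.2 and 21.7 in sgNS (log2 fold change -1.54, and -1.22 as TPM; limma adjusted p = 5.27e-07 and 0.000142). The mitochondrial enoyl reductase gene *MECR* fell (-0.90, and -0.59 as TPM), as did *NDUFAB1*, the mitochondrial acyl carrier protein (-0.59, and -0.24 as TPM). *OXSM*, the mitochondrial condensing enzyme, fell on the spike-in scale (-0.50) and did not pass as TPM (-0.16).

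Other genes of fatty acid activation and binding had the median nearest to that of the 8 genes, -0.67. Of 14 tested, 9 fell and 1 rose, against 49.3% and 6.4% of all genes. As TPM 8 of 13 fell and 3 rose, against 26.6% and 24.4% of all genes, with a median of -0.43. *ACSL5*, a relative of *ACSL1*, was 45.7, 43.7 and 51.0 in sgMETTL1.3, against 102, 114 and 117 in sgNS (log2 fold change -1.23, and -0.88 as TPM; limma adjusted p = 1.35e-06 and 0.000276). *ACSL3*, which serves lipid droplets, fell (-1.0, and -0.66 as TPM). *SLC27A2*, a very long-chain acyl-CoA synthetase, fell (-1.62, and -1.30 as TPM), and *FABP5*, a fatty acid binding protein of macrophages and skin, was 342, 324 and 358 in sgMETTL1.3, against 685, 758 and 743 in sgNS (-1.09, and -0.74 as TPM). *DBI*, the acyl-CoA binding protein, chosen after its values were seen, was the member of this list that rose (0.26, limma adjusted p = 0.0341, and 0.61 as TPM), and it lost its call without any 1 of 4 libraries, sgMETTL1.3 replicate 3 and each sgNS library. The kinase AMPK phosphorylates and inhibits acetyl-CoA carboxylase. Of 6 tested genes, which were AMPK subunits and the upstream kinase gene *STK11*, 3 fell and 0 rose. That is near the 49.3% and 6.4% of all genes. As TPM 2 fell and 2 rose, against 26.6% and 24.4% of all genes. *PRKAA1*, the catalytic subunit, fell (-0.90, and -0.56 as TPM), *PRKAG1* fell (-0.67, and -0.33 as TPM), *PRKAB1* fell only on the spike-in scale (-0.30, and 0.04 as TPM), and *PRKAG2* was at 0.12 without passing and rose as TPM (0.45).

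**Figure D5:**
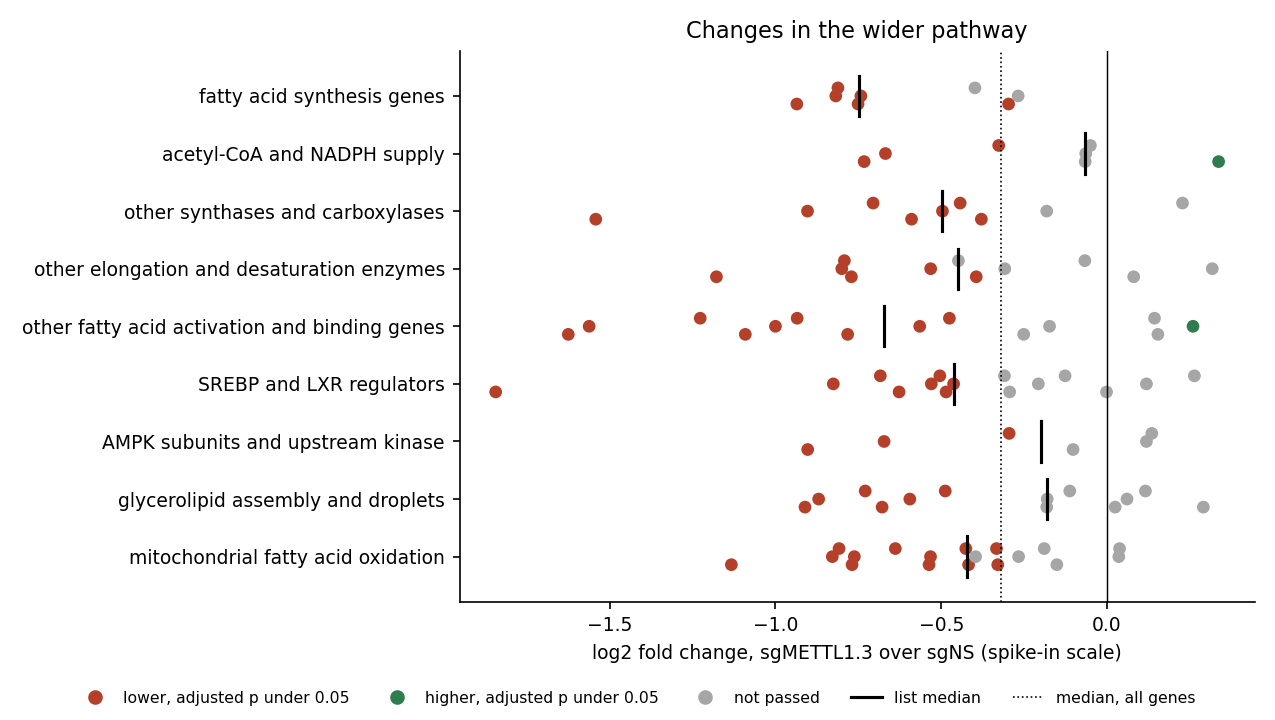
Log2 fold change of sgMETTL1.3 over sgNS on the spike-in scale for each tested gene of the fatty acid genes (top row) and of 8 other lists, with list medians as bars and the median of all genes, -0.32, dotted. The medians run from -0.75 for the fatty acid genes to -0.07 for acetyl-CoA and NADPH supply, where the value was -0.23 without sgMETTL1.3 replicate 1 and -0.34 with GC correction.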

How the data were processed

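Gene values of 6 libraries were used as deposited. The submitters' processing notes name cutadapt, STAR and RSEM and the builds GRCh38 and hg38, without versions, and neither annotation nor strand use was found in the sources used here. Per the labels' protocols, 300 ng of total RNA was used and spike-ins were added. The deposited values are a signal: divided by a single factor per library they are TPM in steps of 0.01, and after multiplication the 92 spike-in rows have equal sums. These steps come from rounding, so reads cannot be recovered and depth is unknown.

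Genes reaching 1 in at least 3 of 6 libraries were compared by limma 3.58.1 (R 4.3.3; trend and robust options, no block, spike-ins left out) after adding 1 and taking log2, which understates changes of low genes. P-values were Benjamini-Hochberg adjusted over all genes, with a threshold of 0.05. The procedure was run on simulated data with independent noise, which lacked the GC pattern of sgMETTL1.3 replicate 1. That run therefore cannot show how the procedure behaves with such a pattern. Ratios used exact permutation tests (scipy 1.17.1). GC content is that of the longest GENCODE 29 transcript, found for 94.2% of tested genes. Named genes are *METTL1*, *WDR4*, the 10 members and the 4 smallest p of each other list, with exceptions stated. Some genes that this rule picks are not reported here. Members and lists were chosen with earlier results of these data known. Alternatives covered scaling, filters, pseudocounts, limma options, a replicate block and leaving out single libraries; both GC corrections, and TPM without sgMETTL1.3 replicate 1, were chosen after seeing the data. *WDR4*, the partner subunit of *METTL1*, was 14.95, 8.68 and 10.65 in sgMETTL1.3, against 28.1, 24.95 and 25.55 in sgNS. B cell markers summed to 6.26 to 10.9 in sgMETTL1.3 and 7.85 to 10.1 in sgNS, and erythroid markers to 1.64 to 2.82 in sgMETTL1.3 and 3.09 to 3.61 in sgNS.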

Additional observations from a re-analysis of the deposited data

How the results depend on the processing

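*ACLY*, *SCD*, *FADS1*, *FADS2* and *ELOVL5* were called lower in each of 18 alternatives (log2 fold changes of -0.97 to -0.31). The direction of *ELOVL1* reversed as TPM (0.0763), with median-ratio rescaling (0.0606), with quantile normalization (0.148) and as TPM without sgMETTL1.3 replicate 1 (0.0746). That of *ACSL1* reversed under the same 4 (0.0497, 0.0337, 0.153 and 0.116) and as TPM with GC correction (0.0966), and that of *FASN* with quantile normalization (0.0259). *ACSS2* reversed as TPM (0.0121), with quantiles (0.0418) and as TPM without sgMETTL1.3 replicate 1 (0.0563); *PRKAB1* as TPM (0.0351), with median ratios (0.0200), quantiles (0.0589) and as TPM without that library (0.0825). *SREBF1* reversed as TPM (0.0461), with median ratios (0.0307) and quantiles (0.0989), and *TECR* likewise (0.0386, 0.0227 and 0.129). With a mean of 5 required, *ELOVL1* passed (adjusted p = 0.0481, limma). As TPM the median of all genes was 0.00, against -0.32 on the spike-in scale; for the other settings the cause was not tested.

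The number of the 8 genes that rose was 1 with quantile normalization and 1 as TPM without sgMETTL1.3 replicate 1, *ACSL1* each time. Over all genes, TPM values gave 3021 higher and 3295 lower, median ratios 2865 and 3594, and quantiles 2978 and 3231. The higher calls came to 3618 after GC correction of TPM, to 4231 for TPM when sgMETTL1.3 replicate 1 was dropped, and to 510 when a mean of 5 was required, a filter that tests fewer genes. When single libraries were left out, 534 to 1037 genes were higher and 4880 to 7538 lower, and 5 to 8 of the 8 genes lower. It gave ratio differences of -0.47 to -0.10 for *ACLY* to *FASN*, -0.56 to -0.14 for *SCD* to *FASN*, -0.23 to -0.12 for *FADS1* to *FADS2*, 0.43 to 0.61 for *ELOVL1* to *ELOVL5* and -0.0415 to 0.385 for *ACSL1* to *FASN*. Among the 36 other genes picked by rule or after their values were seen, 26 had the same call and direction in every alternative run.

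Libraries with the same replicate number did not deviate together (correlations of -0.01, 0.00 and -0.04 for replicates 1, 2 and 3). Each deviation is from a mean of 3 libraries, so these correlations cannot show whether such libraries were grown or prepared together. With the replicate number as a block 814 genes rose and 5861 fell, and 6 of the 8 genes fell, with *FASN* gaining the call (adjusted p = 0.0112, limma) and *ACSL1* losing it (adjusted p = 0.0616, limma).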

Other observations

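The fate of fatty acids after synthesis was described by 2 more lists. Of 18 tested genes of mitochondrial fatty acid oxidation, 12 fell and 0 rose, with a median log2 fold change of -0.42. Of all tested genes 49.3% fell and 6.4% rose, and the median was -0.32. As TPM 8 fell and 2 rose, against 26.6% and 24.4% of all genes, with a median of -0.08. Without sgMETTL1.3 replicate 1 as TPM 9 fell and 4 rose, against 35.4% and 34.7% of all genes, with a median of -0.14. *ETFA*, a subunit of the flavoprotein that takes electrons from acyl-CoA dehydrogenases, was 206, 188 and 224 in sgMETTL1.3, against 429.6, 466 and 459 in sgNS (log2 fold change -1.13, limma adjusted p = 1.69e-06, and -0.79 as TPM). *ACADM*, the medium-chain acyl-CoA dehydrogenase, fell (-0.81, and -0.47 as TPM), as did *ACAD9* (-0.77, and -0.43 as TPM) and *ETFDH*, which passes the electrons to ubiquinone (-0.76, and -0.42 as TPM).

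Of 13 tested genes of glycerolipid assembly and lipid droplets, 6 fell and 0 rose, with a median of -0.18. That is near the 49.3% and 6.4% of all genes. Without sgMETTL1.3 replicate 1, 9 fell, against 61.4% of all genes, and the median was -0.42. As TPM 5 fell and 4 rose, against 26.6% and 24.4% of all genes. The TPM median was 0.15, and -0.03 without that library. *LPCAT3*, which places polyunsaturated acyl chains in phospholipids, was 56.5, 46.7 and 54.9 in sgMETTL1.3, against 96.6, 105 and 97.7 in sgNS (log2 fold change -0.91, limma adjusted p = 1.25e-05, and -0.57 as TPM). *AGPAT3* fell (-0.87, and -0.53 as TPM), *LPCAT1*, which acylates lysophosphatidylcholine, fell (-0.73, and -0.38 as TPM), and *HILPDA*, an inhibitor of lipase on droplets, fell (-0.68, and -0.35 as TPM).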
